A study of Mus musculus with 4 samples.

Results

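The fibroblast growth factor (FGF) receptors Fgfr1, Fgfr2, Fgfr3 and Fgfr4 and the FGF ligands Fgf2, Fgf7, Fgf9, Fgf10, Fgf18 and Fgf21 were read in OP9 mouse stromal cells with and without Wnt3A. These 10 genes, of 27597 named on the array, were found by their symbol or transcript accession. The family was selected on the measured difference of Fgfr2 between the groups, so the values of its 10 genes in that comparison are a description and support nothing by themselves. The genes had 21 probes of 60 bases, 13 for the 4 receptors and 8 for the 6 ligands, on 57 spots per array.

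OP9 is a stromal line from newborn mouse bone that lacks functional macrophage colony-stimulating factor and is used to support blood progenitors in culture. Both groups carried the retroviral vector LZRS-IRES-GFP. In the Control group (2 arrays) it held no further gene, and in the Wnt3A group (2 arrays) it held the Wnt3A gene. Samples of a group are named separate replicates in the labels, which leave unsaid if these were different cultures, if cells were sorted on GFP, or if a line was 1 clone. All p-values therefore measure the spread between these samples, which may be technical.

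Most FGFs are secreted proteins that bind receptor tyrosine kinases at the cell surface together with heparan sulfate. The receptors signal through RAS and the ERK kinases, through PI3 kinase and through phospholipase C. The signal induces its own inhibitors, among them the Sprouty proteins and ERK phosphatases, and ETS transcription factors. In many organs stromal cells make FGFs that act on neighbouring epithelium, and FGF signals also act on stromal cells themselves, on bone and on blood progenitors.

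The values are deposited intensities, on a linear scale on which the median of each array is 1. Signals were counted as detected above an estimated floor, which was 0.0702 and 0.0631 for Control replicates 1 and 2 and 0.0533 and 0.0729 for Wnt3A replicates 1 and 2, the order kept throughout. Of all spots 81.8% and 82.0% in Control and 83.7% and 80.7% in Wnt3A were above it, so detection by itself says little about a gene or a cell type. Differences are log2 of Wnt3A over Control after the arrays were scaled to their 75th percentile. Their standard error (SE, 2 arrays a group) is the moderated one of limma, which draws a probe's spread toward that of all tested probes. Levels of different probes are not set against each other, since brightness also depends on the probe. All 10 stromal markers were detected on all 4 arrays, with a summed intensity of 714 and 1040 in Control against 1698 and 1788 in Wnt3A, a sum that its brightest probes set. The groups stood apart upward for Col1a1, Col1a2, Col3a1 and Sparc and downward for Pdgfra, Vcam1, Cxcl12 and Vim (21.5% and 23.7% of all genes). Of the 10, 6 were lower (median difference -0.13, range -2.25 to 4.27), and none passed the threshold. At an unadjusted limma p under 0.05, Col1a1, Col1a2 and Col3a1 were higher and Pdgfra, Cxcl12 and Vim lower (6.31% and 6.34% of all genes). All 8 macrophage markers (summed intensity 9.29 to 11.8) and all 5 epithelial markers (8.17 to 10.7) were also above the floor on all 4 arrays. Of 5 endothelial markers 2 or 3 were above it (1.25 and 1.69 in Control, 1.19 and 0.854 in Wnt3A), with Tek and Kdr below the floor on all 4 arrays. The part of these markers in the FGF values was not tested. The Wnt3a probe of the array read 0.0151 and 0.0134 in Control and 0.0112 and 0.123 in Wnt3A, where 1 array was above the floor. This probe starts at position 2599 of its transcript (chr11:59064352-59064411, mm8), and as no source used here says if the vector holds that stretch, it is no check of the labels.

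The deposited table and the deposited scanner files did not carry the same differences. All 4 table columns ranked the spots most like the scanner file labelled Control replicate 2 (Spearman correlation 0.826 to 0.845), and less like those of Control replicate 1 (0.610 to 0.637), Wnt3A replicate 1 (0.683 to 0.712) and Wnt3A replicate 2 (0.743 to 0.762). The table columns therefore could not be tied to the scanner files of their own samples. In the scanner files 41.8% and 84.9% of spots in Control and 85.7% and 71.6% in Wnt3A were well above background. Of the 9 member genes tested in the table, 4 had the same direction in the scanner files and 5 the opposite one, Fgfr2 among them. Every direction given below is that of the table, and scanner values are given with it. In the scanner files all tested member probes had the same SE of 1.42 (log2), which the fit pooled over probes. It is not the spread of each probe, and the sign of the smaller differences is not known.

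The genes whose probes all had groups that did not overlap in the table were Fgfr1, Fgfr2, Fgf2 and Fgf7, and for each of them 1 or 2 probes are shown, with the Fgfr1 pair chosen because they share bases. The sequences are given 5′ to 3′ as in the array annotation. The Fgfr2 probe that chose the family lies at chr7:130033600-130033659 (mouse build mm8, minus strand). The overlapping Fgfr1 probes lie at chr8:27039115-27039174 and chr8:27039136-27039195, and the Fgf7 probe at chr2:125780852-125780911 (plus strand). The Fgf2 probes lie within chr3:37540561-37587780, an extent of 47220 bases for a probe of 60, and at chr3:37596166-37596225. The annotation pairs each with its gene and transcript, and what else lies at these positions was not analysed here.
Fgfr2 A_52_P158800: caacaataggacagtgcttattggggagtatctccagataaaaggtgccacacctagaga
Fgfr1 A_51_P109469: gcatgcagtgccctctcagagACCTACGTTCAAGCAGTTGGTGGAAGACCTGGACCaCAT
Fgfr1 A_52_P668810: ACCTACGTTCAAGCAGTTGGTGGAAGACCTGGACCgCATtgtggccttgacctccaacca
Fgf7 A_51_P465331: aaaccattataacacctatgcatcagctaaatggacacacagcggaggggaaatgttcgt
Fgf2 A_51_P399845: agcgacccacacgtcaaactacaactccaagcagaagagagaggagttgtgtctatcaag
Fgf2 A_52_P376768: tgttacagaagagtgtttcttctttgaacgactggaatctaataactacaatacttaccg
Capitals mark the bases that the Fgfr1 probes share. Over the 39 bases where they overlap they differ at 1 position, A57G counted from the 5′ end of A_51_P109469. These 2 probes therefore read nearly the same stretch of the transcript and are not independent readings.

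Of the receptors, Fgfr2 had the widest difference in the table. Fgfr2 has splice forms that differ between epithelium and mesenchyme, one form answering to Fgf7 and Fgf10. Probe A_52_P158800 read 0.148 and 0.262 in Control and 31.8 and 26.3 in Wnt3A. Both Wnt3A arrays were high and both Control arrays low, with each Control array above the floor, and the difference was 7.21 ± 0.40 (SE), or 148-fold. Probe A_51_P432403 read 0.319 and 0.280 in Control and 7.31 and 4.75 in Wnt3A, a difference of 4.31 ± 0.38 or 19.9-fold. Probe A_52_P363110 read 0.131 and 0.520 in Control and 9.24 and 13.0 in Wnt3A, a difference of 5.40 ± 0.72 or 42.2-fold. All 3 probes thus had both Wnt3A arrays above both Control arrays, and they disagreed on the size of the difference. In RNA of whole cultures, fewer expressing cells and less RNA per cell cannot be told apart, here and for every gene below. The array annotation lists the transcripts NM_010207 and NM_201601 for the last 2 of these probes and only the first of them for A_52_P158800. Which splice form a probe reads was not analysed.

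The 3 Fgfr2 probes had the opposite sign in the scanner files, at -2.04 ± 1.42 for A_52_P158800 and -0.90 ± 1.42 for A_51_P432403, neither of them called. Probe A_52_P363110 differed by -3.12 and was not tested there, because it was well above background on only 1 of the 4 files. For A_52_P158800 the scanner intensity before scaling was 37.2 and 52.4 in Control and 204 and 8.77 in Wnt3A. The value of 8.77 was not flagged well above background. The file medians were 7.32 and 178 in Control and 147 and 95.0 in Wnt3A, so these intensities cannot be compared between files. After scaling the log2 values were 0.21 and -3.80 in Control and -1.43 and -6.25 in Wnt3A. The first Wnt3A file thus lay between the 2 Control files and the second below both. Control replicate 1, the file with the lowest median, had the highest scaled value. Fgfr2 was past the threshold of 0.05 (limma, Benjamini-Hochberg over 33709 probes) in the table by 2 of its 3 probes. The call of A_51_P432403 passed in 4 of 11 alternatives on the table and was lost with no filter (limma adjusted p 0.071), with a filter that needs all 4 arrays above the floor (0.058) and with the replicate block (0.101), over a range of 0.031 to 0.205. Without any single one of the arrays no Fgfr2 probe passed, and the differences were 6.85 to 7.57 for A_52_P158800, 3.99 to 4.64 for A_51_P432403 and 4.46 to 6.34 for A_52_P363110. The Control values of Fgfr2 lay near the floor, and that of Control replicate 1 for A_52_P363110 was under a floor 2 times as high, which limits how well the folds of these probes are known.

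**Figure D1:**
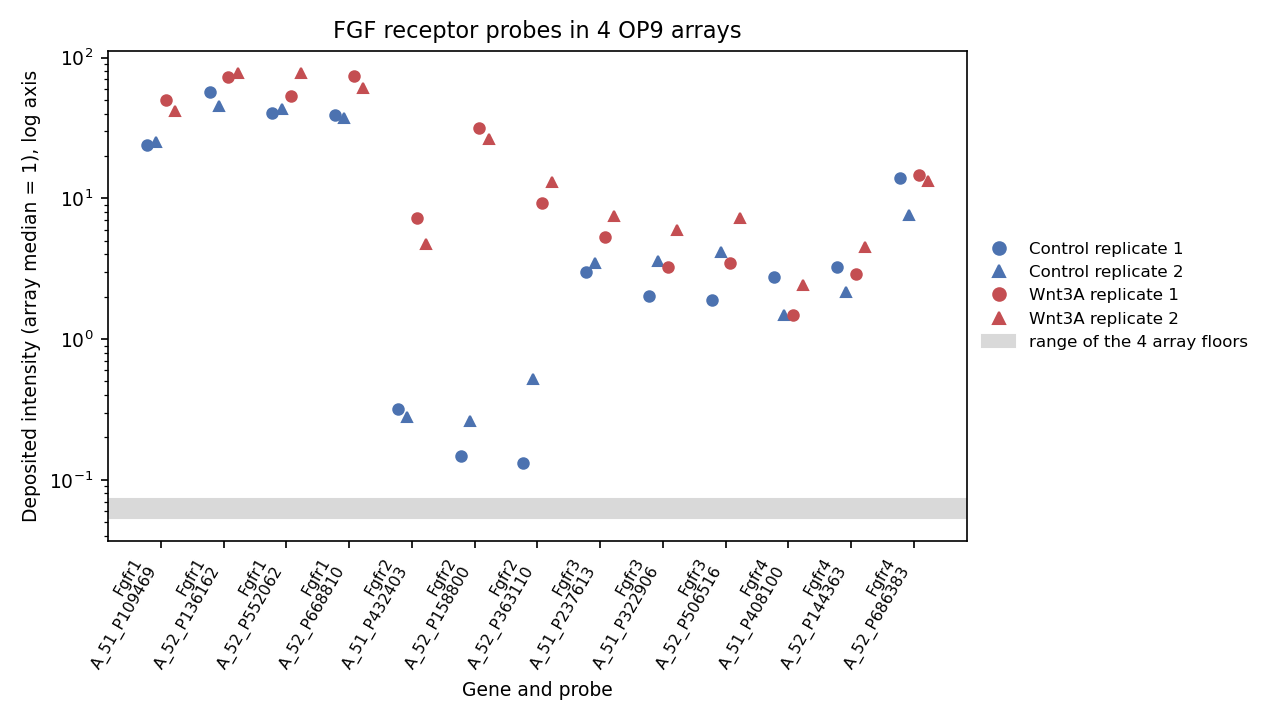
Deposited intensity (log axis, array median 1) of the 13 receptor probes on the 4 arrays, circles for replicate 1 and triangles for replicate 2, Control in blue and Wnt3A in red, the grey band spanning the 4 floors. The 3 Fgfr2 probes lie under 1 in both Control arrays and above 4 in both Wnt3A arrays, while the groups overlap for all 3 Fgfr4 probes.

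Fgfr1, the receptor most widely found in mesenchymal cells, was detected with all 4 probes on all 4 arrays. Probe A_51_P109469 read 24.0 and 25.3 in Control and 49.7 and 41.5 in Wnt3A, a difference of 0.89 ± 0.31. Probe A_52_P668810, which overlaps it, read 39.3 and 37.1 in Control and 74.7 and 61.1 in Wnt3A, a difference of 0.83 ± 0.32. Both Wnt3A arrays lay above both Control arrays for these probes and for the other two. Probe A_52_P136162, which stands for the gene, read 56.8 and 45.7 in Control and 73.1 and 77.4 in Wnt3A, a difference of 0.57 ± 0.33. Probe A_52_P552062 read 40.7 and 43.3 in Control and 53.0 and 77.8 in Wnt3A. None of the 4 probes was past the threshold, and in the scanner files their differences were 0.06, -1.45, -1.02 and 1.80 in the order named, which is not of 1 sign.

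Fgfr3 is the receptor known for restraining the growth of cartilage. Probe A_51_P237613 read 3.01 and 3.49 in Control and 5.30 and 7.49 in Wnt3A, a difference of 0.97 ± 0.34 with both Wnt3A arrays higher. Probe A_51_P322906 read 2.04 and 3.60 in Control and 3.24 and 5.97 in Wnt3A, and probe A_52_P506516 read 1.88 and 4.17 in Control and 3.48 and 7.30 in Wnt3A. The groups overlapped for both of these, because the first Wnt3A array lay below the second Control array. They share 37 bases with 1 difference (T28C, counted from the 5′ end of A_51_P322906), so they count as 1 reading of the transcript. In the scanner files all 3 Fgfr3 differences were negative, from -1.61 to -0.46.

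Fgfr4, which in liver carries the hormone-like FGF signal that lowers bile acid synthesis, showed no separation of the groups. Probe A_52_P686383 read 13.9 and 7.64 in Control and 14.7 and 13.3 in Wnt3A, a difference of 0.44 ± 0.45. Probe A_52_P144363 read 3.23 and 2.15 in Control and 2.92 and 4.51 in Wnt3A (0.47 ± 0.43). Probe A_51_P408100 read 2.75 and 1.48 in Control and 1.49 and 2.42 in Wnt3A (-0.07 ± 0.50). The spread between arrays of a group was as wide as the differences. The scanner differences in the same order were -2.14, 0.07 and 0.51.

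Fgf7, keratinocyte growth factor, is made by stromal cells and acts on epithelium. Its probe read 121 and 131 in Control and 75.9 and 52.3 in Wnt3A. Both Wnt3A arrays lay below both Control arrays, though far above the array median. The difference was -0.99 ± 0.35, or 1.99-fold lower, which did not pass the threshold. The scanner difference had the same sign (-0.78).

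Fgf2, a growth factor for mesenchymal cells that leaves the cell without a signal peptide, was measured with 2 probes. Probe A_51_P399845 read 1.41 and 0.952 in Control and 0.673 and 0.660 in Wnt3A, a difference of -0.78 ± 0.37, or 1.72-fold lower. Probe A_52_P376768 read 1.52 and 0.727 in Control and 0.578 and 0.028 in Wnt3A, where the second array was under the floor. Both probes had both Wnt3A arrays below both Control arrays and neither passed the threshold. The scanner differences were -1.79 and -1.04, and the second probe was well above background on only 1 of the 4 files.

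None of the other 4 ligands had groups that stood apart. Fgf18, which acts in bone and cartilage, read 0.697 and 0.198 in Control and 0.196 and 0.184 in Wnt3A, so that only the first Control array was high (-0.96 ± 0.72, scanner -0.51). Fgf9, known from testis and lung development, read 0.149 and 0.281 in Control and 0.309 and 0.104 in Wnt3A (-0.18 ± 0.68), with a scanner difference of 2.82. Fgf21, a metabolic hormone made mainly in liver, read 0.241 and 0.445 in Control and 1.20 and 0.282 in Wnt3A by probe A_51_P315925 (0.85 ± 0.83, scanner 0.53), and only the first Wnt3A array stood out. Its other probe, A_52_P235347, was above the floor in that array alone, at 0.270 against 0.013 to 0.015 in the other three, and was not tested. Fgf10, the mesenchymal ligand that drives lung and limb budding, read 0.113 and 0.038 in Control and 0.137 and 0.040 in Wnt3A (scanner difference -0.33). It was above the floor on the first array of each group and below it on the second, and it was the 1 member gene that did not enter the test.

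**Figure D2:**
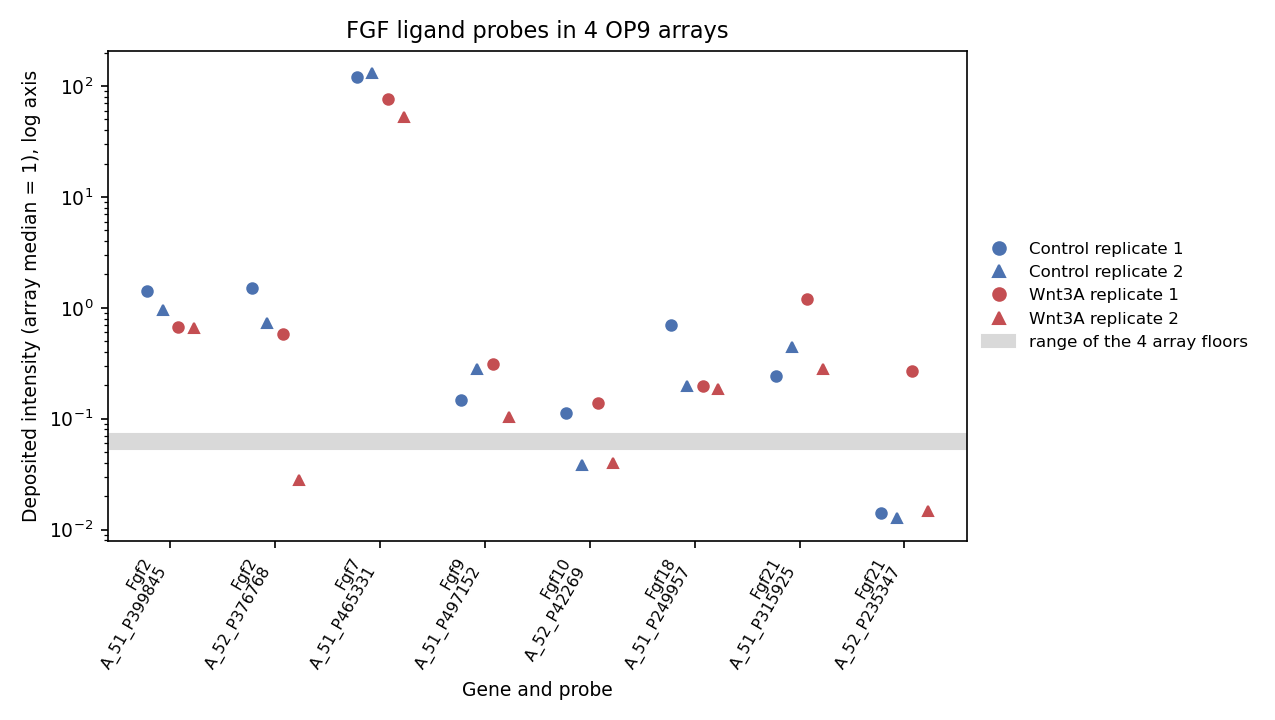
Deposited intensity (log axis, array median 1) of the 8 ligand probes on the 4 arrays, circles for replicate 1 and triangles for replicate 2, Control in blue and Wnt3A in red, the grey band spanning the 4 floors. Fgf7 and both Fgf2 probes have the 2 Wnt3A arrays below the 2 Control arrays, while the other probes overlap between the groups.

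Of the 4 probes printed on 10 spots per array, Fgfr1 A_51_P109469 had an SD between spots of 0.028 to 0.085 (log2) and Fgf2 A_51_P399845 one of 0.046 to 0.065. For Fgfr2 A_51_P432403 it was 0.051 to 0.210. Its spots ran from 0.244 to 0.363 and from 0.244 to 0.359 in Control, and from 6.72 to 7.67 and from 4.06 to 5.83 in Wnt3A. The spots of the 2 Wnt3A arrays thus did not overlap each other, while those of the 2 Control arrays overlapped almost wholly. Fgf10 A_52_P42269 had an SD between spots of 0.213 to 0.945, with 10 and 2 of 10 spots above the floor in Control and 10 and 1 in Wnt3A. Spots of 1 array are technical repeats and counted as 1 value.

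**Figure D3:**
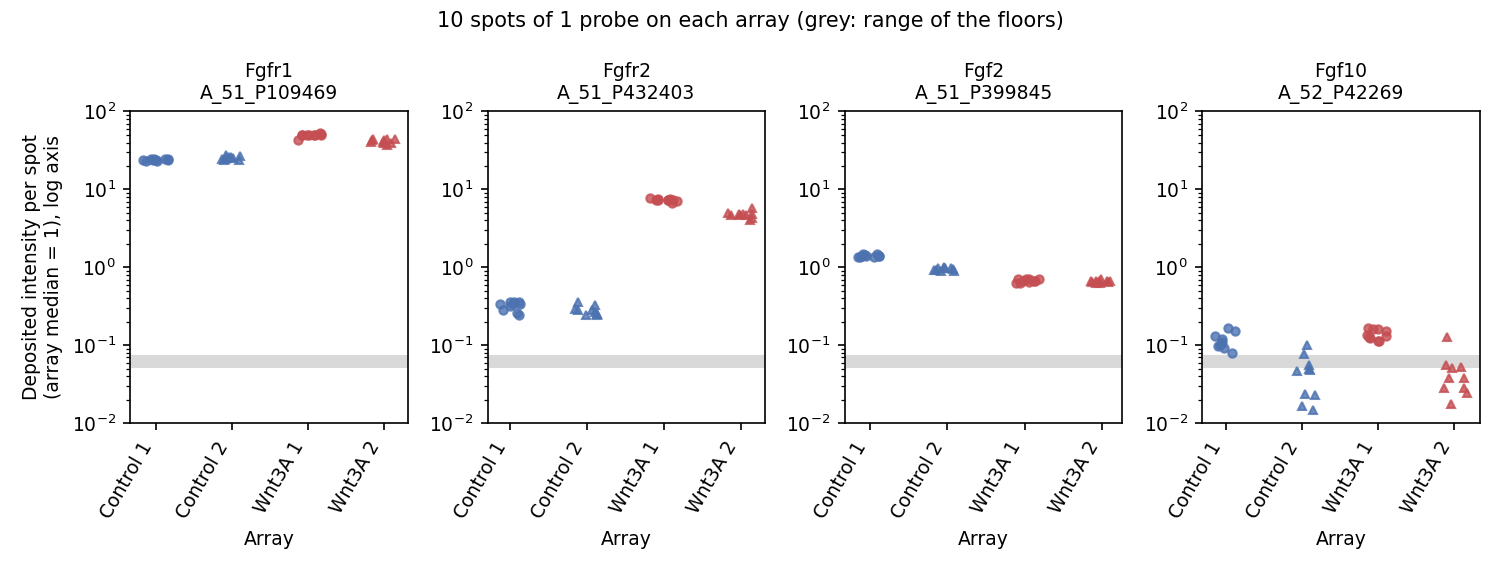
Deposited intensity (log axis, array median 1) of the 10 single spots of 1 probe each for Fgfr1, Fgfr2, Fgf2 and Fgf10 on the 4 arrays, with the range of the floors in grey. Fgfr2 spots lie below 0.4 in Control and above 4 in Wnt3A, and Fgf10 spots straddle the floor on the second array of each group.

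Over the family, 1 of the 9 tested genes (Fgfr2) was higher past the threshold and 0 were lower (limma, adjusted over all probes). At an unadjusted p under 0.05 there were 2 higher (Fgfr2 and Fgfr3) and 1 lower (Fgf7), against 6.31% and 6.34% of all genes. Over all 22859 genes tested 0.402% were called higher and 0.241% lower. By probe, 2 of 19 tested were called higher, against 0.424% of all probes. Both Wnt3A arrays lay above both Control arrays for 3 genes (Fgfr1, Fgfr2 and Fgfr3) and below them for 2 (Fgf2 and Fgf7), against 21.5% and 23.7% of all genes tested. Counts by gene rest on its tested probe of highest mean. The other Fgfr3 probes had overlapping groups, and Fgfr1 probe A_51_P109469, which does not stand for its gene, had an unadjusted limma p of 0.042. Nothing is read from these counts, since the family was selected on the same comparison. The median difference of the 9 genes was 0.44, against -0.01 over all genes tested. In the scanner files 18 member probes were tested and 0 were called.

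**Figure D4:**
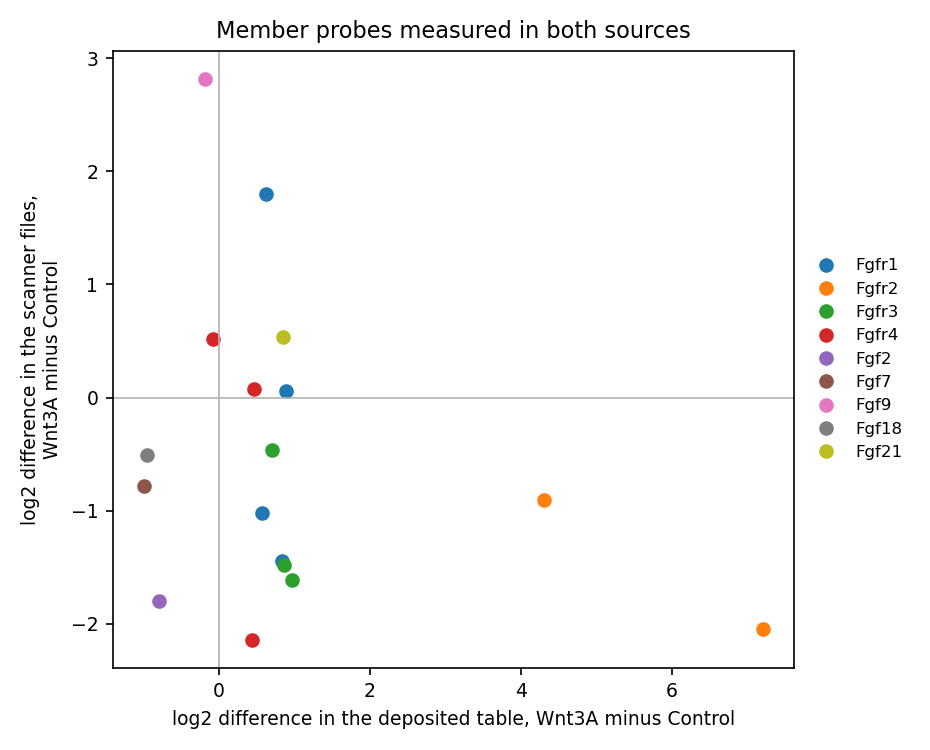
Log2 difference (Wnt3A minus Control) of the 17 member probes tested in both sources, in the deposited table (x axis) and in the scanner files (y axis), 1 colour per gene. The 2 Fgfr2 points lie far right and below the zero line, at 4.31 and 7.21 in the table against -0.90 and -2.04 in the scanner files.

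The rest of the pathway was read in 6 lists with 87 genes, of which 80 were tested. None rose and none fell past the threshold (limma, adjusted over all probes), while 5 were higher and 14 lower at an unadjusted p under 0.05. Over all genes tested these shares were 6.31% and 6.34%. The sign was positive for 27 and negative for 53, against 49% and 51% of all genes. Both Wnt3A arrays lay above both Control arrays for 17 of the 80 and below them for 31, against 21.5% and 23.7% of all genes. The lists were chosen with earlier results known, and these shares are the background for the counts of each list below. The genes named below are the 3 with the smallest p in each list.

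Of the feedback inhibitors, which are induced by receptor signalling and dampen it, 10 were tested, with 1 higher and 9 lower in the Wnt3A arrays and a median difference of -0.91. The groups stood apart for 9 of them, 1 above and 8 below (21.5% and 23.7% of all genes). An unadjusted p under 0.05 was found for 6, all lower but Spry1 (6.31% of all genes higher and 6.34% lower). Spry1, a Sprouty inhibitor of receptor tyrosine kinase signalling, read 0.423 and 0.744 in Control and 64.8 and 23.7 in Wnt3A, a difference of 6.14 ± 0.63 or 70.4-fold (limma adjusted p 0.056). Its relative Spry4 read 2.07 and 0.583 in Control and 0.012 and 0.017 in Wnt3A, where both arrays were under the floor. Against the floor it was at least 17.5-fold lower (limma adjusted p 0.072). The list's median of -0.91 cannot move with Spry4 at this bound, since the bound still lies below the median. Dusp6, a phosphatase of ERK, read 2.74 and 4.0 in Control and 1.01 and 0.789 in Wnt3A (-1.88 ± 0.36). In the table Spry1 and Spry4 thus lay on opposite sides, each by more than the spread between arrays of a group. In the scanner files the Spry1 difference was -0.16, that of Spry4 -1.60 and that of Dusp6 0.19.

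Of the targets of FGF and ERK signalling 12 were tested, with 4 higher and 8 lower and a median of -0.64. The groups stood apart upward for 3 and downward for 7 (21.5% and 23.7% of all genes). The 3 with the smallest p were ETS factors that FGF signals induce. Etv5 read 12.3 and 8.35 in Control and 1.49 and 1.88 in Wnt3A (-2.58 ± 0.39). Etv4 read 15.2 and 13.5 in Control and 4.07 and 4.06 in Wnt3A (-1.81 ± 0.31). Etv1 read 0.757 and 1.04 in Control and 0.109 and 0.041 in Wnt3A (-3.72 ± 0.59), with 1 Wnt3A array under the floor. All 3 had both Wnt3A arrays below both Control arrays, and none passed the threshold (limma adjusted p 0.104 to 0.128). The scanner differences were 0.61 for Etv5, 0.58 for Etv4 and -1.04 for Etv1.

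Of the co-receptors and binding proteins 8 were tested, with 3 higher and 5 lower and a median of -0.21. The groups stood apart upward for 2 and downward for 1 (21.5% and 23.7% of all genes). Fgfrl1, an FGF receptor relative without a kinase domain, read 23.5 and 49.9 in Control and 2.30 and 0.838 in Wnt3A. The 2 Wnt3A arrays lay below the 2 Control arrays, and the difference was -4.62 ± 0.67, or 24.5-fold lower (limma adjusted p 0.101, scanner -0.37). Klb, the co-receptor of Fgf21, had overlapping groups (0.65 ± 0.46, scanner -0.68), and Flrt3, a membrane protein that binds FGF receptors, differed by 0.61 ± 0.33 (scanner -1.27).

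Of 14 other Fgf genes tested, 5 were higher and 9 lower, with a median of -0.17. The groups stood apart upward for 4 and downward for 4 (21.5% and 23.7% of all genes). Fgf1, which binds all FGF receptors, read 0.897 and 0.981 in Control and 0.267 and 0.214 in Wnt3A (-1.96 ± 0.32, limma adjusted p 0.118, scanner -0.40). Fgf16 and Fgf20, secreted relatives of Fgf9, differed by 0.67 ± 0.35 (scanner -0.44) and 0.51 ± 0.34 (scanner -0.24). Of 20 signal transducers 11 were higher and 9 lower, with a median of 0.14, and the groups stood apart upward for 7 and downward for 5. Pik3r1, a regulatory subunit of PI3 kinase, read 10.7 and 11.5 in Control and 31.4 in both Wnt3A arrays (1.51 ± 0.30, limma adjusted p 0.155, scanner -0.49). Mapk3, an ERK kinase, differed by -1.24 ± 0.36 (scanner 0.71) and Hras by 1.14 ± 0.38 (scanner 0.36).

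Of 16 genes that make or edit heparan sulfate, the co-receptor of FGFs on the cell surface, 3 were higher and 13 lower, with a median of -0.33. The groups stood apart for 6, all below (23.7% of all genes). Ndst3, a sulfotransferase that acts early in the chain's modification, read 1.88 and 2.19 in Control and 0.233 and 0.143 in Wnt3A (-3.47 ± 0.39, limma adjusted p 0.065, scanner -0.84). Hs6st2, a later sulfotransferase, differed by -2.29 ± 0.52 (scanner -0.40), and Sulf2, which removes sulfate outside the cell, by -0.65 ± 0.30 (scanner -1.82).

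**Figure D5:**
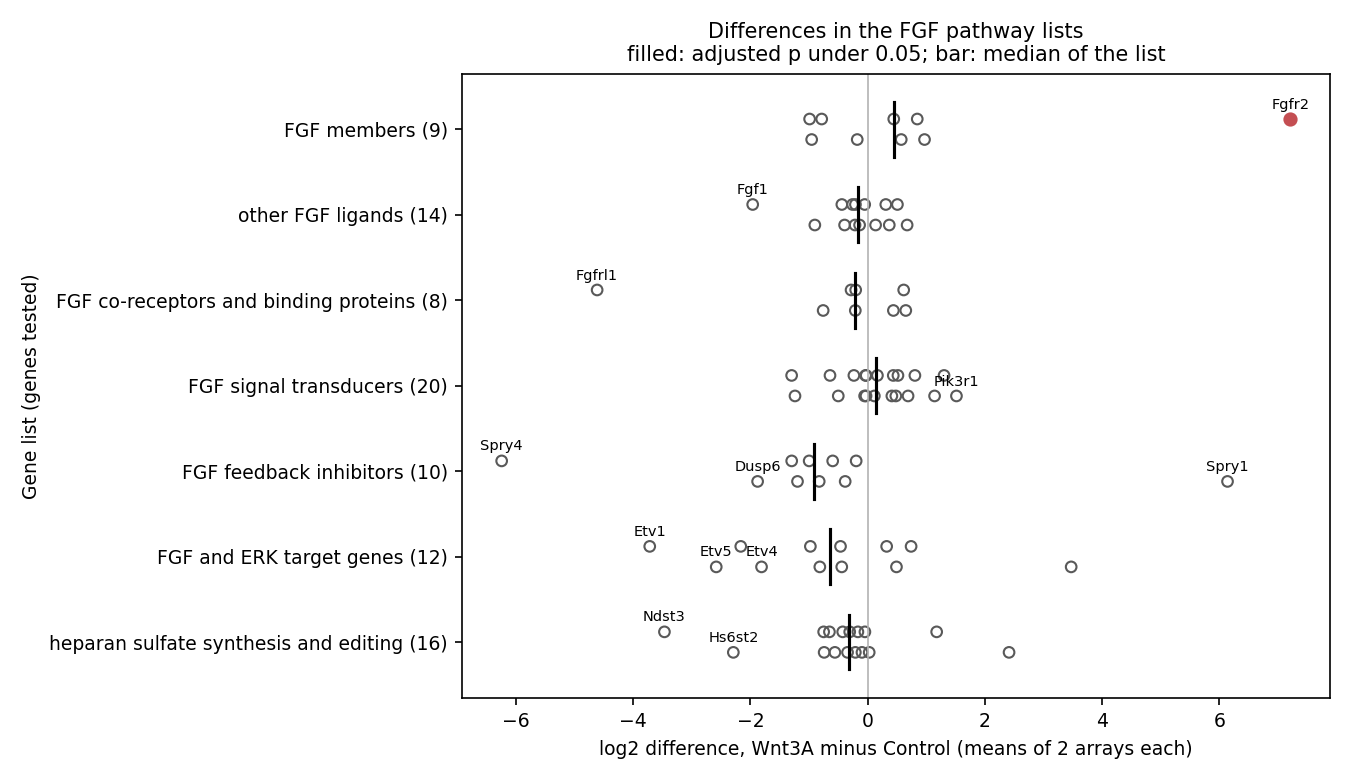
Log2 difference (Wnt3A minus Control, x axis) of every tested gene of the FGF family and the 6 pathway lists, 1 circle per gene, filled where the adjusted p was under 0.05, with a bar at the median of each list. Fgfr2 is the filled circle, Spry1 lies at 6.14 and Spry4 at -6.24 (a fitted value, with both Wnt3A arrays under the floor), and the medians run from -0.91 to 0.44.

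The 5 genes whose 4 values lay nearest to those of Fgfr2 probe A_52_P158800, by Euclidean distance of centred log2 values over the 4 arrays among 21172 genes above the floor on all of them, were Tnc (distance 0.32), Fmod (0.36), Hoxb9 (1.06), Plagl1 (1.18) and Pdzrn3 (1.20). Tnc, an extracellular matrix glycoprotein, read 1.05 and 1.60 in Control and 184 and 200 in Wnt3A. Fmod, a collagen-binding proteoglycan, read 0.415 and 0.961 in Control and 107 and 103 in Wnt3A. The differences of the 5 genes were 6.23 to 7.75 in the table, close to that of Fgfr2 because nearness to it chose them. In the scanner files those of Fmod, Hoxb9, Plagl1 and Pdzrn3 were negative and that of Tnc was 0.92. All were smaller in size than the SE of the member probes there, so their signs are not known.

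TCF factors, through which canonical Wnt signals reach genes, bind a short motif, and the promoters of the family were searched for its letters (CTTTG followed by 2 letters that are each A or T, both strands). RefSeq promoter windows of 300 bases around the gene start (build GRCm38.p6) were matched for 9 of the 10 genes, all but Fgfr1, with 10 windows. A match was found in 1 of them, that of Fgf7, against 16.9% of all 32851 windows. The Fgfr2 window held no match.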

How the data were processed

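RNA of 4 OP9 samples, amplified by a global PCR method per the labels, was read on 1-colour Agilent mouse arrays, 1 per sample, all on 1 slide and scan. In the deposited table the authors give 43379 non-control spots an intensity on a linear scale, every column with a median of 1, and how that scale was reached is not given in the sources used here. The scanner files hold intensity from Agilent Feature Extraction 10.5.1.1, background-subtracted within the array and not scaled between arrays, and flags of other kinds for signal well above background and saturation, per the file headers. No spot was flagged saturated in the scanner files, and the table has no such flag. The number of arrays limits the precision.

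The members and lists were chosen with earlier results of these data known, and so was the table as the main source, in which the groups differ. Values were put on the log2 scale less the array's own 75th percentile, with a mean over the spots of a probe (41174 probes). The floor was 4.94 times the 1st percentile of a column (the median over the 4 scanner files of the lowest signal flagged well above background over the 1st percentile), so it is lenient. A probe was tested if either group had both arrays above it, and the tested probe of highest mean stood for its gene. The comparison used lmFit and eBayes of limma 3.58.1 (R 4.3.3, two-sided), adjusted by Benjamini-Hochberg over 33709 probes, with a threshold of 0.05. The fit was tested on simulated data. Probes were named from RefSeq by accession (24375), current symbol (6301) or older symbol (2426), and 8072 kept the name in the file. Text names every member, the 3 genes with the smallest p of each pathway list (none passed) and the 5 genes nearest to Fgfr2. Alternatives were other scalings, filters, floors, eBayes settings and probe summaries, each array left out, a replicate block, and the scanner values.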

Additional observations from a re-analysis of the deposited data

How the results depend on the processing

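The 1 member gene called higher (Fgfr2) was called 0 times with the replicate block, with the scanner processed signal, with scanner normexp and quantile values, and with each array left out (0 to 0), where the lone array of a group is assumed to vary like the other group. Samples of the same number did not deviate together (r = 0.012), and with the replicate block the adjusted p of Fgfr2 A_52_P158800 was 0.098. Over 12 alternatives on the table its adjusted p ran from 0.012 to 0.191, passing in 7, against 4 of 11 for A_51_P432403 (0.031 to 0.205). Pathway genes called higher became 1 (Spry1) with a floor 2 times as high, the mean of a gene's probes, or trend and robust settings, and genes called lower became 2 (Spry4 and Ndst3) with the mean of probes. With an array left out the difference ran from -0.57 to 0.43 for Fgfr4 A_51_P408100, from -0.042 to 0.93 for A_52_P686383, from -0.98 to 0.62 for Fgf9, from -1.92 to 0.0060 for Fgf18 and from -0.22 to 1.91 for Fgf21. The processed and the normexp scanner values turned the sign of Fgfr1 A_52_P136162 (-1.02, -0.31) and A_52_P668810 (-1.45, -1.06), Fgfr2 A_51_P432403 (-0.90, -0.17) and A_52_P158800 (-2.04, -0.83), Fgfr3 A_51_P237613 (-1.61, -1.02), A_51_P322906 (-0.46, -0.20) and A_52_P506516 (-1.48, -0.64), Fgfr4 A_51_P408100 (0.51, 0.64) and A_52_P686383 (-2.14, -1.98) and Fgf9 (2.82, 1.38). Of the other genes they turned Klb (-0.68, -0.35), Flrt3 (-1.27, -0.13), Mapk3 (0.71, 0.69), Pik3r1 (-0.49, -0.55), Dusp6 (0.19, 0.13), Etv4 (0.58, 0.37), Etv5 (0.61, 0.28), Fmod (-1.15, -0.83), Hoxb9 (-0.57, -0.34), Plagl1 (-0.35, -0.41) and Pdzrn3 (-0.12, -0.11). The processed signal alone turned Fgf16 (-0.44), Fgf20 (-0.24) and Spry1 (-0.16). The processed scanner differences of tested member probes all had the same pooled SE of 1.42, so a turn to a small value leaves the sign unknown. The cause was not tested. On the table, member probes kept direction and side of the threshold in 198 comparisons with an alternative, lost the call in 12 and turned in 7. Only 2 arrays a group and a lenient floor limit Fgf9, Fgf10, Fgf18, Fgf21 and the Control side of Fgfr2, whose values lay near it. Scanner values gave no tested difference for Fgfr2 A_52_P363110, Fgf2 A_52_P376768, Spry4, Etv1, Hs6st2 and Sulf2 where neither group had both files well above background, and a filter on all arrays none for Fgf2 A_52_P376768, Spry4 and Etv1.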
